A study of Mus musculus with 24 samples.

Results

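The genes described here carry TGF-beta, activin and myostatin signals: 10 gene symbols, taken by name from the 24016 in a table of gene expression in mouse hindlimb muscle. They are the TGF-beta ligands Tgfb1, Tgfb2 and Tgfb3, Ltbp2 of the latent TGF-beta binding protein family, the receptor genes Tgfbr1 and Tgfbr2, the activin subunit genes Inhba and Inhbb, the myostatin gene Mstn and the follistatin gene Fst. Where a symbol had several transcripts, the one with the highest RPKM averaged over libraries stood for it. RPKM is a level that allows for transcript length and sequencing depth, being a read number divided by the kilobases of exon and by the M reads of the library. All 10 passed a filter of at least 1 RPKM in at least 6 of the 24 libraries, which left 12382 genes. Ltbp2 and Inhba reached 1 RPKM in gastrocnemius libraries alone, so they could enter the test only by being higher there. Inhbb reached 1 RPKM in adductor only in control adductor 5, so it too passed the filter through gastrocnemius.

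Poly(A) RNA was sequenced from muscles of C57BL/6 mice on day 7 after ligation of 1 femoral artery, in 4 groups of 6 libraries. The groups were ischemic gastrocnemius of type 2 diabetic mice, ischemic gastrocnemius of control mice, adductor of type 2 diabetic mice and adductor of control mice. All 4 groups share the operation, and the adductor is labelled normoxic, so the name of the muscle and its ischemia cannot be told apart. The labels place growth of arterioles in the adductor and of capillaries in the gastrocnemius, and the series asks how type 2 diabetes alters expression during that growth. They do not say how diabetes was produced, give no age or sex, and do not say which samples share an animal. P-values therefore measure the spread between these samples.

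TGF-beta family ligands are secreted dimers that bring together type I and type II receptor kinases at the cell surface, and these phosphorylate Smad proteins, which move to the nucleus and regulate genes. TGF-beta is stored in the matrix in a latent complex and must be released before it can bind. Activins and myostatin use activin receptors and reach the same Smads as TGF-beta, and follistatin binds activins and myostatin and blocks them. In skeletal muscle myostatin restrains fibre growth, and TGF-beta is known for matrix deposition after injury.

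The promoters of Mstn and Ltbp2 are shown because these genes had the lowest and the highest difference of the 10 between the muscles of control mice. The sequences are from RefSeq on build GRCm38.p6 and give the 250 bases before the annotated start, 5′ to 3′ on the coding strand. The windows are chr1:53061390-53061639 on the plus strand for Mstn and chr12:84876492-84876741 on the minus strand for Ltbp2. Capitals mark matches to the E-box CANNTG, bound by myogenic factors such as Myod1, and to CAGACA, the core of the CAGA box bound by Smad3.
Mstn: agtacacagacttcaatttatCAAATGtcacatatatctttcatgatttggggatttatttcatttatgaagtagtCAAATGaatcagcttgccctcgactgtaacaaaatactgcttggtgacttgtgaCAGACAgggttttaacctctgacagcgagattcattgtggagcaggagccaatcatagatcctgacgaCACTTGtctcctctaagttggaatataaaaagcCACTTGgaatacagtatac
Ltbp2: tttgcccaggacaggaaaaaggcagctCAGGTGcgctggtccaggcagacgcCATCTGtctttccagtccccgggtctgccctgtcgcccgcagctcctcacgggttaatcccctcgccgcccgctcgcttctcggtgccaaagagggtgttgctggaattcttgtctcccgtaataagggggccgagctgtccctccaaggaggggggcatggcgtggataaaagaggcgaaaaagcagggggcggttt
The Mstn window held 4 E-boxes, which begin 229, 174, 52 and 19 bases before the start, and 1 CAGACA, 120 bases before it. The Ltbp2 window held 2 E-boxes, 223 and 198 bases before the start, and no CAGACA. Both strands were searched, and the matches did not overlap. Of 32851 mouse promoter windows of this length, 66.2% held an E-box and 17.1% held CAGACA. The palindromic Smad box was found in 0.167% of the windows and in none of those of the 10 genes. Entries were found for 8 of the 10 genes, and Tgfb3 and Fst had none. G and C made up 38.4% of the Mstn window and 61.6% of the Ltbp2 window. A match describes the letters of the window and does not show binding.

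The libraries held between 7.13 and 15.6 M reads each, and 3 reads on a transcript of 1 kb correspond to 0.421 RPKM in the shallowest library and 0.192 RPKM in the deepest. Gapdh separated the libraries into sets of which the labels say nothing. It lay at 677 to 1757 RPKM in the first set (14 libraries, diabetic 1 to 4 and control 1 to 3 of both muscles) and at 0.365 to 13.7 RPKM in the second (10 libraries, diabetic 5 and 6 and control 4 to 6). Markers of mature myofibres, 7 genes such as Ckm and Acta1, were high in every group. Their summed RPKM ran from 13448 to 44734 in diabetic gastrocnemius, from 10547 to 44667 in control gastrocnemius, from 28427 to 69917 in diabetic adductor and from 35444 to 80396 in control adductor. Control adductor 2 stood apart from the other adductor libraries, with the highest sums of fibroblast (922 RPKM), macrophage (227 RPKM) and regenerating myofibre markers (121 RPKM). In the muscle comparisons the median of all tested genes was itself 0.55 higher in gastrocnemius of diabetic mice and 0.66 higher in control mice on the log2 scale. Median-of-ratios scaling, which divides each library by a factor set by its typical gene, brings these medians to -0.04 and -0.02.

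Between the muscles 6 of the 10 genes passed the test in diabetic mice and 9 in control mice, in both directions, and fewer passed with median-of-ratios scaling. In diabetic mice 5 of the 10 were higher and 1 was lower in gastrocnemius than in adductor, against a background of 48.1% of tested genes higher and 8.83% lower (limma on log2 of RPKM plus 0.5, adjusted p under 0.05). In control mice 8 were higher and 1 was lower, against 54.4% and 8.7%. With median-of-ratios scaling 2 were higher and 2 lower in diabetic mice (background 27.3% and 26.5%), and 5 were higher and 2 lower in control mice (background 28.3% and 26.5%). So many genes differ between these muscles that a call alone does not set any of the 10 apart. Ltbp2 and Inhba could enter the test only by being higher in gastrocnemius, so their direction in these counts was set by the filter. Inhbb passed the filter through gastrocnemius, so its direction rests partly on the filter. The genes higher in gastrocnemius under both scalings and in both mouse groups were Tgfb1 and Ltbp2, and the gene lower in all of these was Mstn. Ranges of the muscles did not overlap for Tgfb1, Ltbp2 and Mstn in diabetic mice, and for these and Tgfb3, Tgfbr1 and Fst in control mice. Over all tested genes 29% lay wholly higher and 2.33% wholly lower in diabetic mice, and 33.3% and 3% in control mice. Without control adductor 2, control gastrocnemius 3 and diabetic gastrocnemius 2, which stood apart, 5 were higher and 1 lower in diabetic mice and 8 and 1 in control mice. The median log2 difference of the 10 was 0.96 in diabetic and 1.26 in control mice. Each comparison is of bulk tissue, in which fewer cells of a type and less RNA per cell cannot be told apart.

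**Figure D1:**
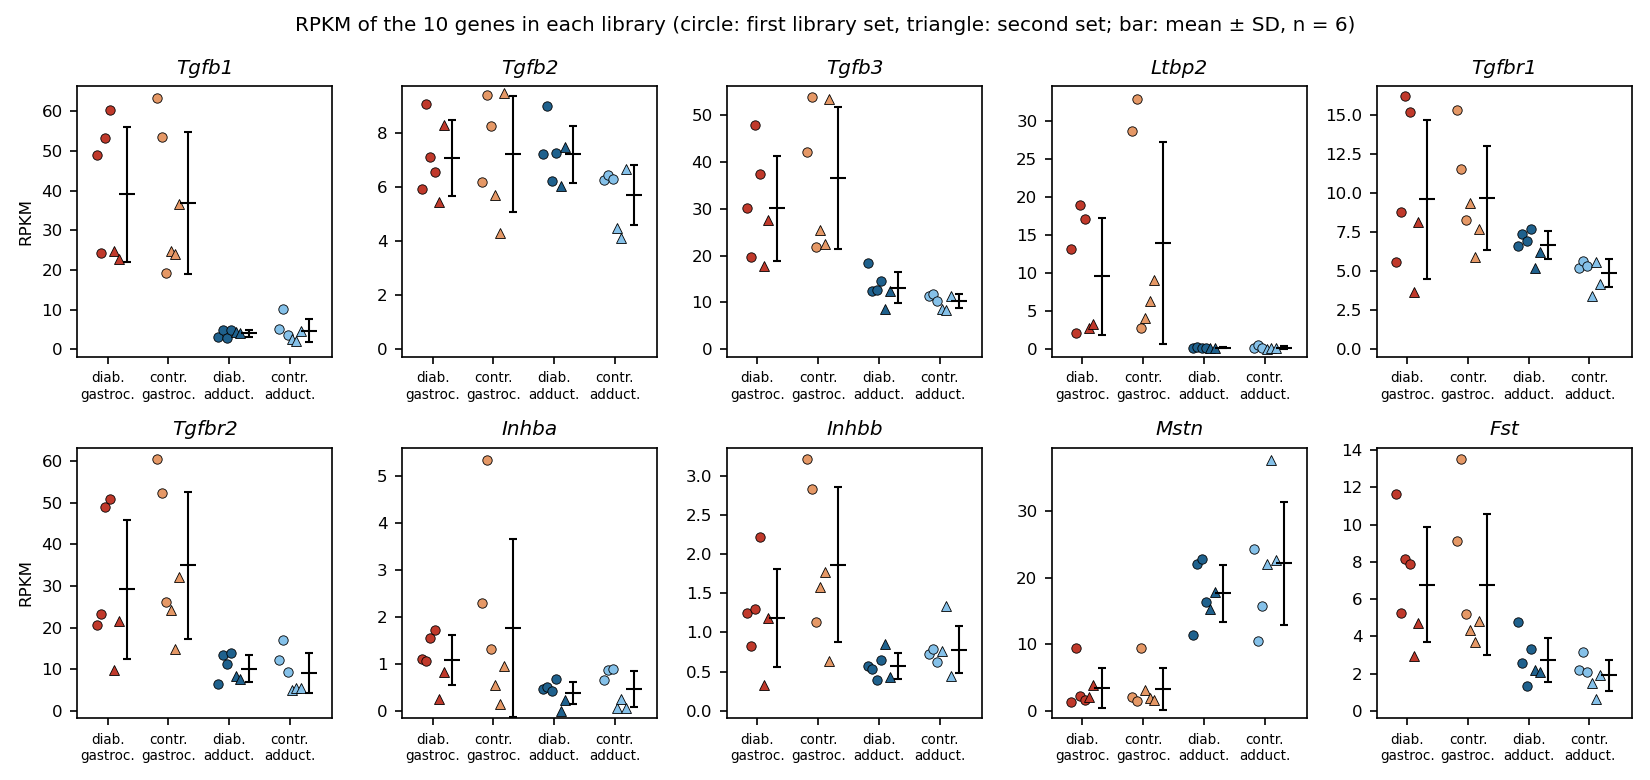
RPKM of each of the 10 genes in every library, with the 4 groups along the horizontal axis (diabetic and control gastrocnemius, diabetic and control adductor), circles for the first library set, triangles for the second and a bar for mean ± SD (n = 6). Tgfb1 lies between 19.3 and 63.3 RPKM in gastrocnemius and between 2.18 and 10.1 RPKM in adductor, and Mstn lies below 10 RPKM in all gastrocnemius libraries.

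Among the TGF-beta isoforms, Tgfb1 differed most. Tgfb1 (chr7:26472021-26490015, plus strand, build mm9) encodes the TGF-beta isoform best known from wound repair. In diabetic gastrocnemius it ran from 22.7 to 60.5 RPKM with a median of 37.0, against 2.88 to 4.95 RPKM with a median of 4.31 in diabetic adductor. In control gastrocnemius it ran from 19.3 to 63.3 RPKM with a median of 30.7, against 2.18 to 10.1 RPKM with a median of 4.06 in control adductor. Every gastrocnemius library lay above every adductor library of the same mouse group, and the highest adductor value was that of control adductor 2. The mean was 39.1 ± 17.0 RPKM in diabetic gastrocnemius and 4.08 ± 0.858 RPKM in diabetic adductor (SD, n = 6 each), a ratio of 9.59. In control mice the mean was 36.9 ± 17.9 RPKM in gastrocnemius and 4.70 ± 2.84 RPKM in adductor (SD, n = 6 each), a ratio of 7.86. Tgfb1 was higher in gastrocnemius by a log2 difference of 3.02 ± 0.33 (SE) in diabetic mice and 2.86 ± 0.33 in control mice, with limma adjusted p of 1.2e-07 and 1.9e-07. Relative to the median of all genes these differences were 2.46 and 2.20. Within the first and the second library set the log2 difference was 3.36 and 2.34 in diabetic mice, and 2.71 and 3.02 in control mice.

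Tgfb3 (chr12:87397693-87419991, minus strand) encodes an isoform known from palate development. It ran from 17.9 to 47.8 RPKM with a median of 29.0 in diabetic gastrocnemius, against 8.61 to 18.5 RPKM with a median of 12.5 in diabetic adductor. In control mice it ran from 21.9 to 54.0 RPKM with a median of 33.8 in gastrocnemius, against 8.49 to 11.8 RPKM with a median of 10.9 in adductor. The muscles of control mice did not overlap, and 5 of 6 diabetic gastrocnemius libraries lay above all diabetic adductor libraries. Tgfb3 was higher in gastrocnemius by a log2 difference of 1.12 ± 0.26 (adjusted p 0.00070, limma) in diabetic mice and 1.69 ± 0.26 (adjusted p 5.7e-06) in control mice. The difference exceeded the median of all genes by 0.56 in diabetic and 1.02 in control mice. With median-of-ratios scaling it was 0.45 in diabetic mice and no longer passed (adjusted p 0.065), and 0.90 in control mice (adjusted p 0.00057). Within the first and the second library set it was 1.14 and 1.07 in diabetic mice, and 1.68 and 1.69 in control mice.

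Tgfb2 (chr1:188447065-188529871, minus strand) encodes an isoform that lacks the integrin-binding sequence found in the latent forms of the other two. It ran from 5.46 to 9.09 RPKM in diabetic gastrocnemius, 4.32 to 9.48 RPKM in control gastrocnemius, 6.05 to 9.02 RPKM in diabetic adductor and 4.11 to 6.66 RPKM in control adductor. The 4 groups overlapped, and the differences did not pass the test. The log2 difference of gastrocnemius from adductor was -0.03 ± 0.18 in diabetic mice (95% interval -0.41 to 0.34) and 0.29 ± 0.18 in control mice (-0.09 to 0.66), with limma adjusted p of 0.89 and 0.17. With median-of-ratios scaling both differences were negative and passed, at -0.67 (adjusted p 0.0029) and -0.46 (adjusted p 0.033). With the replicate number as a block the control difference passed as higher (0.29, adjusted p 0.040), and likewise without control gastrocnemius 5 (0.41, adjusted p 0.042).

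The isoforms took unequal shares of the summed TGF-beta RPKM in the muscles. Tgfb1 made up 50.1 ± 7.32% of the sum in diabetic gastrocnemius and 17.0 ± 4.28% in diabetic adductor (SD, n = 6 each). In control mice its share was 44.9 ± 7.02% in gastrocnemius and 21.3 ± 7.44% in adductor. The share of Tgfb1 lay between 36.8% and 57.9% in all 12 gastrocnemius libraries and between 11.1% and 35.5% in all 12 adductor libraries. The share of Tgfb2 went the other way, at 10.4 ± 4.56% in diabetic gastrocnemius against 29.6 ± 3.34% in diabetic adductor, and 9.76 ± 3.77% in control gastrocnemius against 27.9 ± 2.81% in control adductor. Tgfb3 took 39.5% in diabetic and 45.3% in control gastrocnemius, and 53.4% in diabetic and 50.8% in control adductor. These shares are ratios within a library, which its scaling does not alter, and they are given as a description. The summed level was 76.3 ± 26.6 RPKM in diabetic gastrocnemius, 80.7 ± 31.9 RPKM in control gastrocnemius, 24.5 ± 3.62 RPKM in diabetic adductor and 20.7 ± 5.01 RPKM in control adductor.

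**Figure D2:**
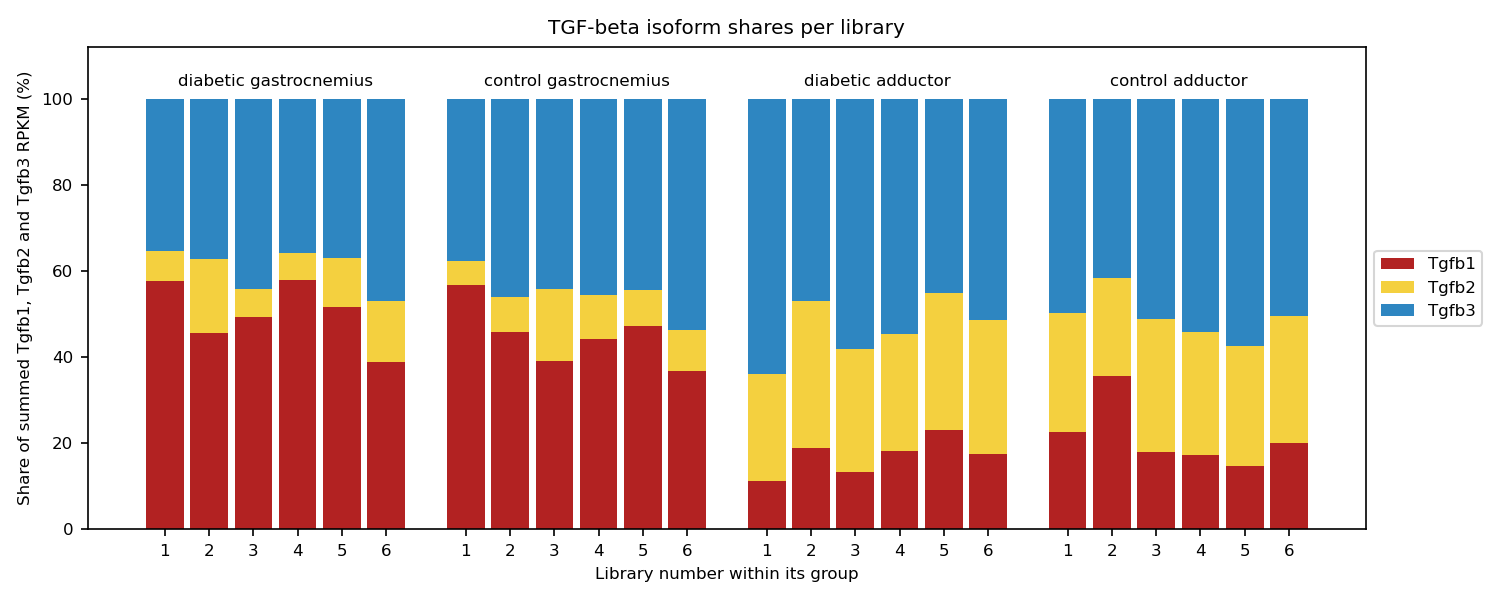
Share of each TGF-beta isoform in the summed RPKM of Tgfb1, Tgfb2 and Tgfb3 (vertical axis, percent), 1 stacked bar per library, grouped as diabetic gastrocnemius, control gastrocnemius, diabetic adductor and control adductor. Tgfb1 takes 36.8% to 57.9% of the bar in gastrocnemius and 11.1% to 35.5% in adductor.

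Ltbp2 had the largest positive difference of the 10. It lies on chr12:86124162-86217445 (minus strand, mm9) and encodes a latent TGF-beta binding protein family member that sits in elastic fibres and, unlike its relatives, does not bind latent TGF-beta. In diabetic gastrocnemius it ran from 2.11 to 18.9 RPKM with a median of 8.22 (143 to 1908 reads), against 0.158 to 0.245 RPKM with a median of 0.208 in diabetic adductor (9 to 23 reads). In control gastrocnemius it ran from 2.75 to 32.9 RPKM with a median of 7.72 (245 to 3391 reads), against 0.0583 to 0.540 RPKM with a median of 0.170 in control adductor (4 to 51 reads). Each gastrocnemius library was above each adductor library, and the spread within gastrocnemius was wide. The means were 9.55 ± 7.70 RPKM in diabetic gastrocnemius and 0.206 ± 0.031 RPKM in diabetic adductor, and 14.0 ± 13.3 RPKM in control gastrocnemius and 0.213 ± 0.169 RPKM in control adductor (SD, n = 6 each). The ratio of means was 46.3 in diabetic and 65.5 in control mice. Limma gave a log2 difference of 3.37 ± 0.52 in diabetic mice (adjusted p 9.8e-06) and 3.83 ± 0.52 in control mice (adjusted p 1.6e-06), on a scale whose pseudocount of 0.5 RPKM lies above the adductor levels of all but 1 library and understates the change. These differences ranked 144th and 79th from the highest of the 12382 genes. Within the first and the second library set they were 3.87 and 2.38 in diabetic mice, and 4.24 and 3.42 in control mice. Ltbp2 could enter the test only by being higher in gastrocnemius. Its direction, call and rank therefore rest partly on the filter and are given as a description. A gene on the opposite strand, D030025P21Rik, overlaps the span of Ltbp2. The counting command in the file header names no strand setting, so it is not known whether reads of the overlap could count for both.

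The 12 gastrocnemius libraries differed widely in Ltbp2, and those with most of it were those with the lowest sums of mature myofibre markers. Ltbp2 was highest, at 13.1, 17.0 and 18.9 RPKM in diabetic gastrocnemius 1, 4 and 3 and 28.6 and 32.9 RPKM in control gastrocnemius 1 and 2. These are the 5 libraries with the lowest sums of mature myofibre markers, 13448 to 21190 RPKM in the diabetic and 10547 and 12960 RPKM in the control libraries, and with the 5 highest levels of Tgfb1, 49.1 to 63.3 RPKM. They all belong to the first library set. The other gastrocnemius libraries of that set, diabetic 2 and control 3, had 2.11 and 2.75 RPKM of Ltbp2, myofibre sums of 40644 and 39733 RPKM, and the lowest sums of regenerating myofibre markers, 478 and 562 RPKM. In the second set Ltbp2 ran from 2.77 to 9.11 RPKM and the myofibre sum from 29821 to 44734 RPKM. The part of cell makeup in the levels of these genes was not tested.

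**Figure D3:**
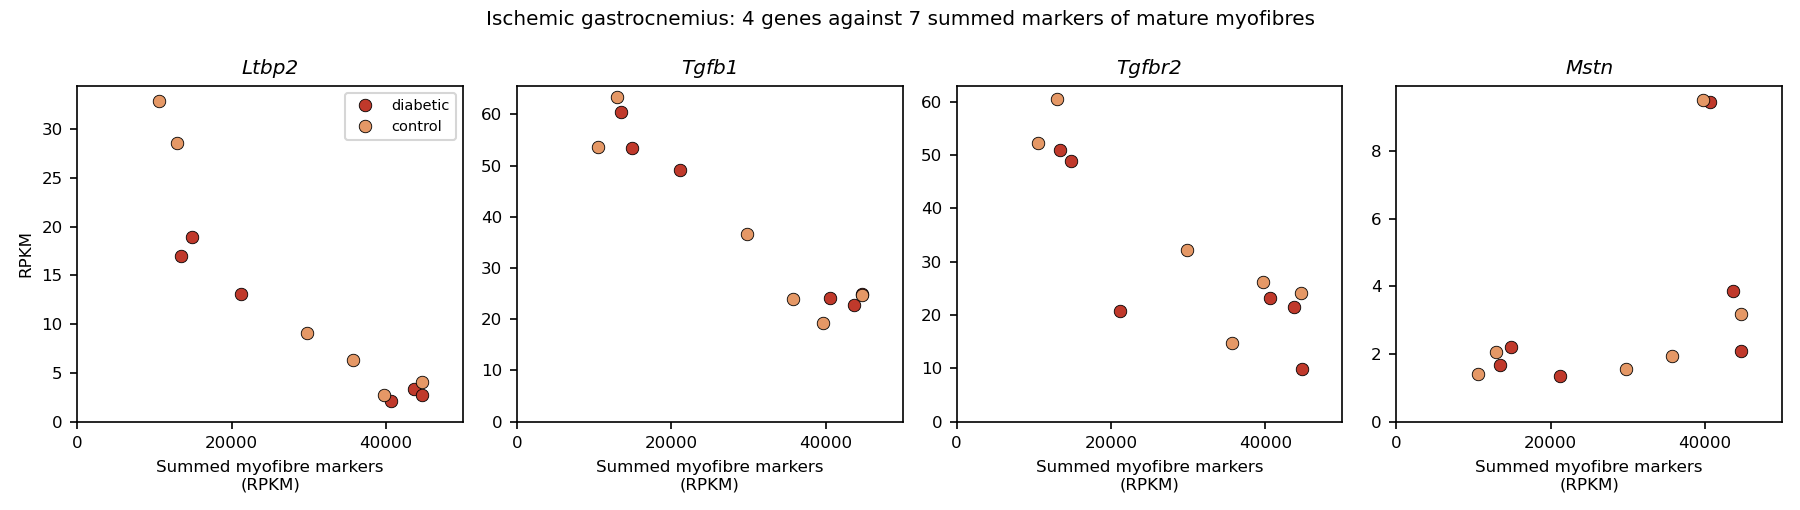
Levels of Ltbp2, Tgfb1, Tgfbr2 and Mstn (vertical axes, RPKM) in the 12 gastrocnemius libraries against the summed RPKM of 7 mature myofibre markers (horizontal axes), diabetic in red and control in orange. The 5 libraries with the lowest marker sums hold the 5 highest levels of Ltbp2 and Tgfb1, and the highest levels of Mstn, 9.44 and 9.50 RPKM, are in libraries with sums of 40644 and 39733 RPKM.

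The receptor genes differed less than Tgfb1. Tgfbr2 (chr9:115996813-116084481, minus strand) encodes the type II receptor that binds TGF-beta first. It ran from 9.81 to 50.9 RPKM with a median of 22.4 in diabetic gastrocnemius, against 6.35 to 13.9 RPKM with a median of 9.75 in diabetic adductor. In control mice it ran from 14.8 to 60.4 RPKM with a median of 29.2 in gastrocnemius, against 4.92 to 17.0 RPKM with a median of 7.41 in adductor. In each mouse group 5 of 6 gastrocnemius libraries lay above all adductor libraries, and the exceptions were diabetic gastrocnemius 5 and control gastrocnemius 5. Tgfbr2 was higher in gastrocnemius by a log2 difference of 1.33 ± 0.38 in diabetic mice (limma adjusted p 0.0049) and 1.88 ± 0.38 in control mice (adjusted p 0.00018). With median-of-ratios scaling the difference was 0.67 in diabetic mice and did not pass (adjusted p 0.076), and 1.11 in control mice (adjusted p 0.0045). Within the first and the second library set the difference was 1.57 and 0.85 in diabetic mice, and 1.77 and 2.00 in control mice. Its 2 listed transcripts averaged 20.6 and 20.8 RPKM over all libraries, and the second was used.

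Tgfbr1 (chr4:47366177-47427796, plus strand) encodes the type I receptor kinase that phosphorylates Smad2 and Smad3. It ran from 3.65 to 16.2 RPKM in diabetic gastrocnemius, against 5.22 to 7.74 RPKM in diabetic adductor, and from 5.91 to 15.3 RPKM in control gastrocnemius, against 3.41 to 5.69 RPKM in control adductor. The muscles of control mice did not overlap, whereas 1 diabetic gastrocnemius library lay below all diabetic adductor libraries. In diabetic mice the log2 difference of Tgfbr1 was 0.34 ± 0.27 (limma adjusted p 0.29), and with median-of-ratios scaling it was -0.31 (adjusted p 0.21). Without diabetic gastrocnemius 5 it passed as higher (0.56, adjusted p 0.048). In control mice Tgfbr1 was higher in gastrocnemius by 0.88 ± 0.27 on the log2 scale (limma adjusted p 0.0067), which is 0.21 above the median of all genes and did not pass with median-of-ratios scaling (0.13, adjusted p 0.63). Taken by library set, the first and then the second, the difference was 0.53 and -0.05 in diabetic mice, and 1.01 and 0.74 in control mice. Whether the muscle difference of the mouse groups differed was tested as the difference of effects, which was -0.54 ± 0.38 and did not pass.

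The activin subunit genes were the lowest of the 10 in gastrocnemius. Inhba (chr13:16106308-16119044, plus strand) encodes the subunit of activin A. It ran from 0.251 to 1.72 RPKM in diabetic gastrocnemius (3 to 38 reads), against 0 to 0.668 RPKM in diabetic adductor (0 to 14 reads), where diabetic adductor 5 had no read. In control mice it ran from 0.154 to 5.32 RPKM in gastrocnemius (2 to 127 reads), against 0.0629 to 0.887 RPKM in adductor (1 to 19 reads). At these read numbers counting error alone is wide. Inhba reached 1 RPKM in gastrocnemius libraries alone, so its direction among the tested genes was set by the filter. In diabetic mice the log2 difference of Inhba was 0.81 ± 0.40 (limma adjusted p 0.085), and it passed with the replicate number as a block (adjusted p 0.0054) and without diabetic gastrocnemius 5 (0.035) or control gastrocnemius 2 (0.042). In control mice Inhba was higher in gastrocnemius by 0.97 ± 0.40 on the log2 scale (limma adjusted p 0.037). That call was lost with no filter on low values (adjusted p 0.053), with median-of-ratios scaling (0.23) and without any 1 of control gastrocnemius 1, 2 or 3 or control adductor 4, 5 or 6 (0.052 to 0.13). In the first and the second library set taken alone the difference was 0.86 and 0.73 in diabetic mice, and 1.25 and 0.70 in control mice.

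Inhbb (chr1:121312042-121318825, minus strand) encodes the subunit of activin B. It ran from 0.330 to 2.22 RPKM in diabetic gastrocnemius (11 to 137 reads), against 0.396 to 0.846 RPKM in diabetic adductor (16 to 38 reads). In control mice it ran from 0.640 to 3.22 RPKM in gastrocnemius (28 to 207 reads), against 0.442 to 1.33 RPKM in adductor (19 to 61 reads). Only control adductor 5, at 1.33 RPKM, reached 1 RPKM in adductor, so the direction of Inhbb rests partly on the filter. The muscles overlapped in both mouse groups, and 4 of 6 gastrocnemius libraries of each lay above all adductor libraries of the same mouse group. In diabetic mice the log2 difference of Inhbb was 0.58 ± 0.27 (limma adjusted p 0.068), it passed with the replicate number as a block (adjusted p 0.042) and without diabetic gastrocnemius 5 (0.012) or control gastrocnemius 6 (0.046), and it was -0.28 with quantile normalization. In control mice Inhbb was higher in gastrocnemius by 0.80 ± 0.27 on the log2 scale (limma adjusted p 0.012), 0.14 above the median of all genes, though the sign turned with quantile normalization (-0.11, adjusted p 0.70). Taken by library set, the first and then the second, the difference was 0.83 and 0.08 in diabetic mice, and 1.17 and 0.43 in control mice.

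Of the 10 genes Mstn fell in gastrocnemius under both scalings and in both mouse groups, whereas Tgfb2 passed as lower with median-of-ratios scaling but not without it. It lies on chr1:53118507-53124923 (plus strand, mm9) and encodes myostatin, which muscle fibres make and which limits their growth. In diabetic gastrocnemius it ran from 1.34 to 9.44 RPKM with a median of 2.15 (43 to 344 reads), against 11.4 to 22.9 RPKM with a median of 17.1 in diabetic adductor (365 to 947 reads). In control gastrocnemius it ran from 1.41 to 9.50 RPKM with a median of 2.00 (43 to 344 reads), against 10.5 to 37.7 RPKM with a median of 22.4 in control adductor (404 to 1087 reads). No gastrocnemius library reached the lowest adductor library. The means were 3.44 ± 3.07 RPKM in diabetic gastrocnemius and 17.6 ± 4.32 RPKM in diabetic adductor, and 3.28 ± 3.11 RPKM in control gastrocnemius and 22.2 ± 9.20 RPKM in control adductor (SD, n = 6 each). Mstn fell in gastrocnemius by 2.44 ± 0.39 on the log2 scale in diabetic mice (limma adjusted p 1.5e-05) and by 2.76 ± 0.39 in control mice (adjusted p 2.6e-06), the 34th and 35th lowest of 12382 genes. Relative to the median of all genes the differences were -2.99 and -3.43. In the first and the second library set taken alone the log2 difference was -2.49 and -2.34 in diabetic mice, and -2.17 and -3.36 in control mice. The highest library of each group, diabetic gastrocnemius 2 and control gastrocnemius 3, raised the gastrocnemius means, which were 2.24 ± 0.977 RPKM in diabetic and 2.03 ± 0.694 RPKM in control mice without it (SD, n = 5 each).

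Markers of mature myofibres, the cells that make myostatin, were also lower in gastrocnemius, 3 of 7 in diabetic and 4 of 7 in control mice, and none was higher. Their median log2 difference was -0.96 in diabetic and -1.42 in control mice, against -2.44 and -2.76 for Mstn. The 7 markers of regenerating fibres, among them the myogenic factor Myog and the embryonic myosin Myh3, were all higher in gastrocnemius in both mouse groups, with a median of 4.93 in diabetic and 4.97 in control mice. Fibroblast markers were higher in 7 of 7 and macrophage markers in 6 of 7 in each mouse group, and fibroblast markers in 4 of 7 with median-of-ratios scaling. Fibroblast sums ran from 1190 to 4492 RPKM in diabetic gastrocnemius, from 1519 to 5385 RPKM in control gastrocnemius, from 252 to 454 RPKM in diabetic adductor and from 218 to 922 RPKM in control adductor. Macrophage sums ran from 264 to 1150 RPKM in diabetic gastrocnemius, from 346 to 1385 RPKM in control gastrocnemius, from 44.3 to 94.6 RPKM in diabetic adductor and from 26.1 to 227 RPKM in control adductor. Endothelial markers were higher in 4 of 6 (none with median-of-ratios scaling), tendon markers in 5 of 5 tested and Schwann cell markers in 2 of 5 in each mouse group, and of 6 smooth muscle markers 3 were higher and 3 lower. Of 5 adipocyte markers 1 was lower in control mice and none differed in diabetic mice, no erythroid marker passed, and no T cell marker reached the filter. Beside these counts stand the shares of all tested genes, 48.1% higher and 8.83% lower in diabetic mice, and 54.4% and 8.7% in control mice. With median-of-ratios scaling the shares were 27.3% and 26.5% in diabetic mice, and 28.3% and 26.5% in control mice. Whether a marker list stands apart from other genes was not tested. No marker of these lists was at 0 in all libraries of a group. The part of these cells in the differences of the 10 genes was not tested.

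Fst (chr13:115242470-115249159, minus strand) encodes follistatin, the secreted inhibitor of activins and myostatin. It ran from 2.95 to 11.6 RPKM with a median of 6.57 in diabetic gastrocnemius, against 1.34 to 4.75 RPKM with a median of 2.38 in diabetic adductor. In control mice it ran from 3.69 to 13.5 RPKM with a median of 5.01 in gastrocnemius, against 0.618 to 3.14 RPKM with a median of 2.01 in adductor. The muscles of control mice did not overlap, and 4 of 6 diabetic gastrocnemius libraries lay above all diabetic adductor libraries. Fst was higher in gastrocnemius by a log2 difference of 1.14 ± 0.33 in diabetic mice (limma adjusted p 0.0053) and 1.54 ± 0.33 in control mice (adjusted p 0.00033). With median-of-ratios scaling the difference in diabetic mice was 0.53 and did not pass (adjusted p 0.12), and in control mice it was 0.85 (adjusted p 0.014). Taken by library set, the first and then the second, it was 1.37 and 0.68 in diabetic mice, and 1.64 and 1.44 in control mice. The ratio of Fst to Mstn RPKM within a library averaged 3.38 ± 3.06 in diabetic gastrocnemius and 0.176 ± 0.127 in diabetic adductor, and 3.48 ± 3.28 in control gastrocnemius and 0.115 ± 0.097 in control adductor (SD, n = 6 each). It lay between 0.546 and 9.58 in gastrocnemius and between 0.016 and 0.416 in adductor, with no overlap.

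**Figure D4:**
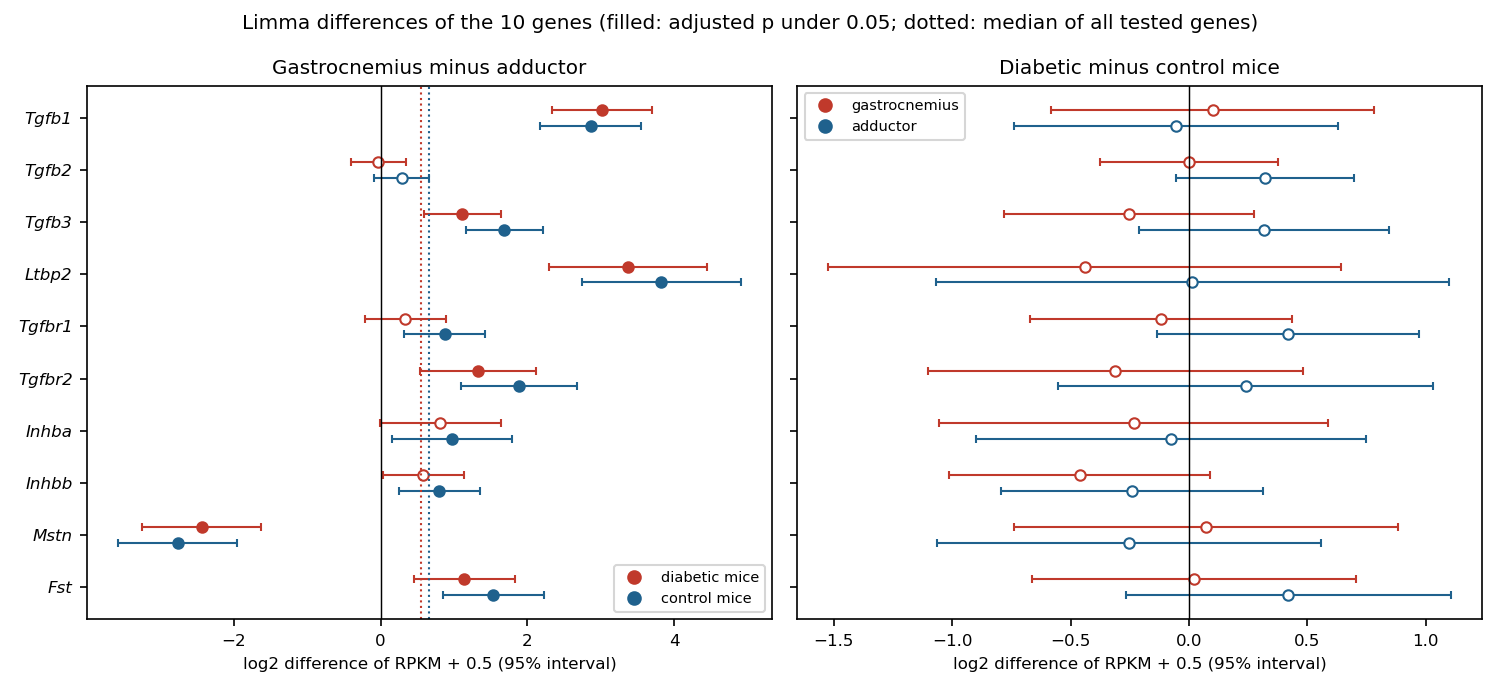
Log2 difference of each of the 10 genes with its 95% interval (horizontal axes), gastrocnemius minus adductor at left and diabetic minus control at right, with filled points for an adjusted p under 0.05 and dotted lines at the median of all tested genes. The muscle differences reach from -2.76 for Mstn to 3.83 for Ltbp2, and no point is filled at right.

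The wider pathway was counted in 6 lists of 123 genes that hold none of the 10, of which 98 were tested. In gastrocnemius 63 were higher and 9 lower in diabetic mice, and 66 were higher and 9 lower in control mice. With median-of-ratios scaling 46 were higher and 22 lower in diabetic mice, and 50 and 22 in control mice. Over all tested genes 48.1% were higher and 8.83% lower in diabetic mice and 54.4% and 8.7% in control mice, and with median-of-ratios scaling 27.3% and 26.5% in diabetic mice and 28.3% and 26.5% in control mice. The counts of each list are to be read against these shares, and whether a list stands apart from other genes was not tested. Genes that reached 1 RPKM in gastrocnemius libraries alone, such as Gdf15, Lefty1, Fbn2 and Tgif2, could enter these counts only by being higher there.

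Of 24 other ligands 10 were tested, 4 were higher and 1 was lower in diabetic gastrocnemius, and 5 were higher and 2 lower in control gastrocnemius, beside 48.1% higher and 8.83% lower in diabetic and 54.4% and 8.7% in control mice over all tested genes. With median-of-ratios scaling 3 were higher and 2 lower in diabetic mice, and 2 and 3 in control mice. The median log2 difference was 0.42 in diabetic and 0.53 in control mice, under that of all genes. Gdf15, a ligand released by stressed cells, was higher by 1.84 ± 0.28 in diabetic mice (limma adjusted p 9.2e-06) and 2.36 ± 0.28 in control mice (adjusted p 3.2e-07). Inha, which encodes the inhibin alpha subunit that opposes activin, was higher by 2.04 ± 0.31 in diabetic mice (adjusted p 7.6e-06) and 1.72 ± 0.31 in control mice (adjusted p 4.7e-05). Inha stood at 6.68 ± 2.91 RPKM in diabetic gastrocnemius and 1.27 ± 0.889 RPKM in diabetic adductor (SD, n = 6 each), a higher level than either activin subunit in these groups. Bmp2, a bone morphogenetic protein, was higher by 0.87 in diabetic and 0.76 in control mice, and Lefty1, an antagonist of Nodal, by 0.85 and 0.69. Gdf15 reached at most 0.576 RPKM and Lefty1 at most 0.696 RPKM in adductor. Both could enter the test only by being higher in gastrocnemius, so their direction, also in the counts of this list, was set by the filter. With median-of-ratios scaling Bmp2 passed in diabetic mice (0.42, adjusted p 0.029) but not in control mice (0.18, adjusted p 0.37), and Lefty1 in neither. The ligand genes that were lower, named after their values were seen, were Bmp6, at -1.08 in diabetic and -0.93 in control mice, and Bmp4, at -0.44 in control mice.

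Of 21 genes of the latent complex and its activation 18 were tested, and 15 were higher and none lower in gastrocnemius in each mouse group, beside 48.1% of all tested genes higher in diabetic and 54.4% in control mice. The median was 1.19 in diabetic and 1.62 in control mice, beside 0.55 and 0.66 for all genes. With median-of-ratios scaling 10 were higher and 1 lower in diabetic mice, and 14 and 1 in control mice. Mmp14, a membrane protease that can free TGF-beta, stood at 134 ± 38.3 RPKM in diabetic gastrocnemius and 10.5 ± 2.73 RPKM in diabetic adductor, and at 158 ± 51.4 RPKM in control gastrocnemius and 11.96 ± 10.2 RPKM in control adductor (SD, n = 6 each). Without control adductor 2, the highest of its group, the control adductor mean was 7.87 ± 2.37 RPKM (SD, n = 5). The log2 difference of Mmp14 was 3.60 ± 0.33 in diabetic and 3.88 ± 0.33 in control mice. Bmp1, a protease that cleaves latent TGF-beta binding proteins, was higher by 2.65 ± 0.36 in diabetic and 2.94 ± 0.36 in control mice. Ltbp1, which holds latent TGF-beta in the matrix, was higher by 0.91 ± 0.25 in diabetic mice (limma adjusted p 0.0038) and 1.55 ± 0.25 in control mice (adjusted p 1.4e-05), against 3.37 and 3.83 for Ltbp2. Its difference in diabetic mice did not pass with median-of-ratios scaling (0.30, adjusted p 0.22). Fbn2, a fibrillin of developing matrix, was higher by 2.32 in diabetic and 2.52 in control mice, and Nrros, which anchors latent TGF-beta on macrophages, by 2.19 and 2.24. Fbn2 reached at most 0.474 RPKM in adductor, so its direction, also in the counts of this list, was set by the filter. Ltbp3 was higher by 1.29 in diabetic and 1.73 in control mice, and Itgb1, an integrin subunit, by 1.16 and 1.70.

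Of 16 other receptors and co-receptors 14 were tested, 4 were higher and 3 lower in diabetic gastrocnemius, and 5 and 3 in control gastrocnemius, beside 48.1% higher and 8.83% lower in diabetic and 54.4% and 8.7% in control mice over all tested genes. Their median, -0.18 in diabetic and 0.16 in control mice, lay under that of all genes. With median-of-ratios scaling 1 was higher and 8 lower in diabetic mice, and 1 and 7 in control mice. Acvr1b, the type I receptor of activin and myostatin, was lower, with a log2 difference of -1.32 ± 0.44 in diabetic mice (limma adjusted p 0.013) and -1.09 ± 0.44 in control mice (adjusted p 0.033). With median-of-ratios scaling the difference of Acvr1b was -1.96 in diabetic mice (limma adjusted p 0.00025) and -1.83 in control mice (adjusted p 0.00048). Acvr2b, a type II receptor that binds myostatin, had a log2 difference of -0.37 ± 0.38 in diabetic and -0.35 ± 0.38 in control mice, neither of which passed, and -0.94 (adjusted p 0.052) and -0.98 (adjusted p 0.043) with median-of-ratios scaling. Acvrl1, an endothelial type I receptor, was higher by 1.31 ± 0.21 in diabetic and 1.40 ± 0.21 in control mice, with adjusted p of 1.8e-05 and 6.0e-06. Hfe2, a bone morphogenetic protein co-receptor of muscle, was lower, with log2 differences of -1.11 in diabetic and -1.42 in control mice, as was Amhr2, at -0.91 in diabetic and -1.77 in control mice. Acvr1, a type I receptor, was higher by 0.79 in diabetic and 1.03 in control mice and Rgma, a co-receptor, by 0.82 and 0.85, and none of these increases of Acvr1 and Rgma passed with median-of-ratios scaling.

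Of 18 other extracellular inhibitors 13 were tested, 8 were higher and 1 lower in diabetic gastrocnemius, and 9 and 1 in control gastrocnemius, beside 48.1% higher and 8.83% lower in diabetic and 54.4% and 8.7% in control mice over all tested genes. With median-of-ratios scaling 7 were higher and 2 lower in diabetic mice, and 7 and 3 in control mice. The median log2 difference without that scaling was 0.90 in diabetic and 1.01 in control mice. Fstl1, a secreted relative of follistatin, was higher by 3.21 ± 0.35 in diabetic and 3.38 ± 0.35 in control mice. Fstl3, which binds activins and myostatin as follistatin does, was higher by 1.62 ± 0.27 in diabetic mice (limma adjusted p 2.3e-05) and 1.34 ± 0.27 in control mice (adjusted p 0.00017). Nbl1, an inhibitor of bone morphogenetic proteins, was higher by 2.30 in diabetic and 2.38 in control mice, and Bmper, a modulator of them, by 2.09 and 2.17. Wfikkn2, which binds and inhibits myostatin, was the inhibitor that fell without that scaling, by 1.48 ± 0.25 in diabetic mice (adjusted p 2.8e-05) and 1.60 ± 0.25 in control mice (adjusted p 8.7e-06). It stood at 1.43 ± 0.860 RPKM in diabetic gastrocnemius and 4.57 ± 0.872 RPKM in diabetic adductor, and at 1.21 ± 0.723 RPKM in control gastrocnemius and 4.55 ± 1.38 RPKM in control adductor (SD, n = 6 each).

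Of 20 Smads and their regulators 19 were tested, and 10 were higher and 3 lower in gastrocnemius in each mouse group, which became 6 higher and 7 lower in each with median-of-ratios scaling. The share higher is near the 48.1% of diabetic and 54.4% of control mice over all tested genes, of which 8.83% and 8.7% were lower. Smad3, the Smad of TGF-beta and activin, was lower, with a log2 difference of -0.48 ± 0.19 in diabetic mice (limma adjusted p 0.035) and -0.47 ± 0.19 in control mice (adjusted p 0.038). With median-of-ratios scaling the difference of Smad3 was -1.14 in diabetic mice (limma adjusted p 4.6e-05) and -1.24 in control mice (adjusted p 1.7e-05). Smad7, an inhibitory Smad that TGF-beta induces, had a log2 difference of -0.03 ± 0.25 in diabetic and 0.09 ± 0.25 in control mice, and both were negative and passed under median-of-ratios scaling, at -0.62 (adjusted p 0.011) in diabetic and -0.58 (adjusted p 0.015) in control mice. Pmepa1, a TGF-beta-induced inhibitor of Smad signalling, was higher by 2.40 ± 0.29 in diabetic and 2.53 ± 0.29 in control mice. Smad1, a Smad of bone morphogenetic proteins, was higher by 1.35 and 1.57, and the corepressor Tgif2 by 2.24 and 1.84. Tgif2 reached at most 0.352 RPKM in adductor, so its direction, also in the counts of this list, was set by the filter. The corepressor Skil was higher by 1.45 in diabetic and 1.44 in control mice, and Tgif1 by 1.62 and 2.07. The other genes of this list that were lower, named after their values were seen, were Zfyve9, which presents Smads to the receptors, at -1.81 in diabetic and -1.35 in control mice, and the phosphatase gene Ppm1a, at -0.81 and -0.77.

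All 24 genes of the response list, which are known to respond to TGF-beta or its relatives, were tested. In diabetic gastrocnemius 22 were higher and 1 lower, and in control gastrocnemius 22 were higher and none lower, beside 48.1% of all tested genes higher in diabetic and 54.4% in control mice. The medians were 2.70 in diabetic and 3.05 in control mice. With median-of-ratios scaling 19 were higher and 2 lower in diabetic mice, and 20 and 1 in control mice. Postn, a matrix protein of fibroblasts, stood at 441 ± 283 RPKM in diabetic gastrocnemius and 6.77 ± 4.99 RPKM in diabetic adductor, and at 664 ± 339 RPKM in control gastrocnemius and 17.8 ± 34.9 RPKM in control adductor (SD, n = 6 each). The control adductor mean rests on control adductor 2, at 89.0 RPKM, and was 3.50 ± 0.941 RPKM without it (SD, n = 5). The log2 difference of Postn was 5.91 ± 0.63 in diabetic and 6.48 ± 0.63 in control mice, with limma adjusted p of 9.2e-08 and 3.0e-08. Timp1, an inhibitor of matrix proteases, was higher by 4.82 in diabetic and 5.45 in control mice, and the collagen gene Col1a2 by 4.18 and 4.38. Id2, a target of bone morphogenetic proteins, was higher by 2.90 in diabetic and 2.63 in control mice, and the matrix gene Tnc by 5.20 and 5.89. The gene that was lower in diabetic mice, named after its value was seen, was Bhlhe40, at -0.73. Col1a1, Col3a1 and Dcn of the pathway lists are among the 7 fibroblast markers, and Acta2 and Tagln among the 6 smooth muscle markers, so these lists are not separate measures. Fibroblast sums moved with this list, as given above with the markers.

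**Figure D5:**
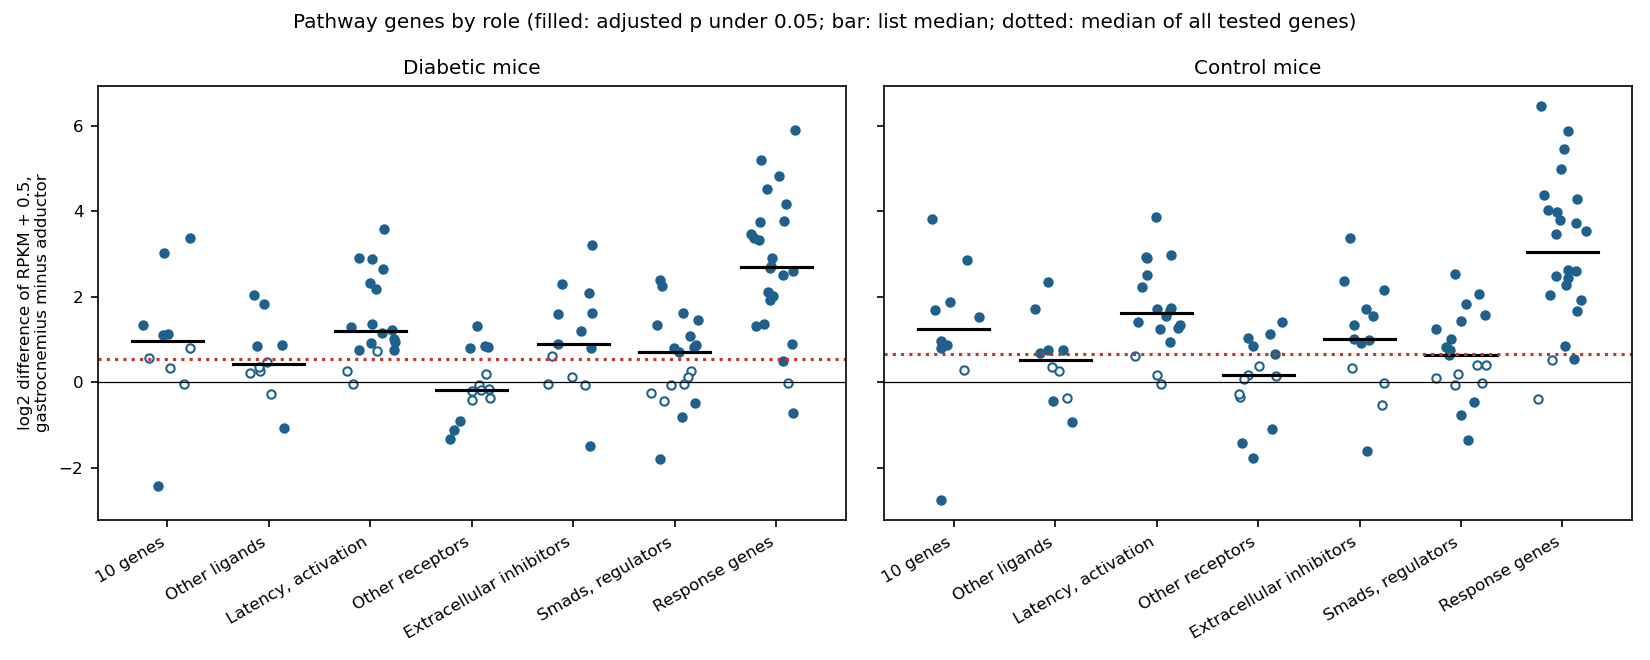
Log2 difference of gastrocnemius from adductor (vertical axis) for the 10 genes and the 6 pathway lists, diabetic mice at left and control mice at right, with filled points for an adjusted p under 0.05, a bar at each list's median and a dotted line at the median of all tested genes. The bars run from -0.18 for the other receptors to 2.70 for the response genes in diabetic mice, and from 0.16 to 3.05 in control mice.

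No difference between diabetic and control mice passed the test for any of the 10 genes in either muscle. In gastrocnemius none of the 10 was called, against a background of 0.00808% of tested genes higher and 0% lower, and in adductor none was called, against 0.0323% higher and 0% lower. By limma none of the 10 had an unadjusted p under 0.05 in either muscle, and limma voom on recovered read numbers gave 0 as well. The diabetic and control ranges overlapped for all 10 genes in both muscles. Over all tested genes 0.0323% lay wholly higher and 0.0323% wholly lower in gastrocnemius, and 0.194% and 0.0242% in adductor. In gastrocnemius the smallest unadjusted p was 0.097, for Inhbb. Inhbb averaged 1.19 ± 0.624 RPKM in diabetic and 1.86 ± 0.988 RPKM in control gastrocnemius (SD, n = 6 each), a log2 difference of -0.46 ± 0.27 with a 95% interval of -1.01 to 0.09, and of -0.57 within each library set. Ltbp2 had a log2 difference of -0.44 ± 0.52 in gastrocnemius with an interval of -1.52 to 0.64, and its values within the first and the second library set were -0.48 and -0.92. Wide intervals such as this one include sizeable differences of either sign. The differences of Tgfb2 (0.00 ± 0.18, interval -0.37 to 0.38), Fst (0.02 ± 0.33, -0.66 to 0.71), Mstn (0.07 ± 0.39, -0.74 to 0.88) and Tgfb1 (0.10 ± 0.33, -0.58 to 0.78) were closest to 0. In the first and the second library set they were -0.14 and 0.12 for Tgfb2, -0.19 and 0.35 for Mstn, and 0.13 and -0.23 for Tgfb1. For Fst they were -0.12 and -0.17, both negative, whereas the pooled value was not.

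In adductor the differences furthest from 0, those of Tgfbr1, Fst, Tgfb3 and Tgfb2, were positive, and none passed. Tgfbr1 ran from 5.22 to 7.74 RPKM with a median of 6.76 in diabetic adductor, against 3.41 to 5.69 RPKM with a median of 5.26 in control adductor. Tgfb3 ran from 8.61 to 18.5 RPKM with a median of 12.5 in diabetic adductor, against 8.49 to 11.8 RPKM with a median of 10.9 in control adductor. For each of these 5 of 6 diabetic adductor libraries lay above all control adductor libraries, and the exception was diabetic adductor 5 of the second set. The log2 difference was 0.42 ± 0.27 for Tgfbr1 (95% interval -0.13 to 0.97), 0.32 ± 0.26 for Tgfb3 (-0.21 to 0.85), 0.32 ± 0.18 for Tgfb2 (-0.05 to 0.70) and 0.42 ± 0.33 for Fst (-0.27 to 1.11), and none passed. In the first and the second library set taken alone the values were 0.38 and 0.36 for Tgfbr1, 0.35 and 0.14 for Tgfb3, 0.20 and 0.40 for Tgfb2, and 0.15 and 0.59 for Fst. Mstn averaged 17.6 ± 4.32 RPKM in diabetic and 22.2 ± 9.20 RPKM in control adductor (SD, n = 6 each), a log2 difference of -0.25 ± 0.39 (-1.07 to 0.56) that was 0.14 within the first set and -0.67 within the second. Tgfb1 likewise had opposite signs within the sets, -0.52 and 0.46, as did Tgfbr2, -0.20 and 0.54.

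The difference between the diabetes effects in the muscles, gastrocnemius minus adductor, passed for none of the 10, against a background of 0% of tested genes in either direction. The largest were -0.57 ± 0.36 for Tgfb3, -0.55 ± 0.54 for Tgfbr2 and -0.54 ± 0.38 for Tgfbr1, and no unadjusted limma p was under 0.05. Of the 98 tested genes of the pathway lists none was called for diabetes in either muscle. At an unadjusted limma p under 0.05 there were 0 of them in gastrocnemius and 3 in adductor, by limma on RPKM and by voom alike. The difference of the diabetes effects had 1. Without control adductor 2, control gastrocnemius 3 and diabetic gastrocnemius 2 there were 5 in gastrocnemius, 3 in adductor and 6 for the difference between effects. The blocked fit gave 0, 3 and 5 in the same order, and none of them was called after adjustment. By limma on RPKM those in adductor included Gdf1 (-0.58 ± 0.23) and Ltbp3 (0.45 ± 0.22), named after their values were seen.

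In order of mean level both gastrocnemius groups stood above both adductor groups for Tgfb1, Tgfb3, Tgfbr1, Tgfbr2, Inhba, Inhbb, Fst and Ltbp2, and both adductor groups above both gastrocnemius groups for Mstn. The muscle differences of Tgfbr1, Inhba and Inhbb did not pass in diabetic mice, so their order by muscle is not resolved there. For Ltbp2 and Inhba, which could enter the test only by being higher in gastrocnemius, the order rests partly on the filter. Within a muscle the order of the diabetic and control means is not resolved for any of the 10 genes, since no difference between them passed the test. Tgfb2 had no order by muscle, with means of 7.09 RPKM in diabetic gastrocnemius, 7.24 RPKM in control gastrocnemius, 7.22 RPKM in diabetic adductor and 5.72 RPKM in control adductor.

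Genes whose levels moved most like each of the 10 from library to library were found after removing the 8 means of group and library set, over 24 libraries. Pearson's r is given as a description, and the libraries share depth and tissue makeup. For Ltbp2 they were Iqsec3 (r 0.981), Pmaip1 (0.978) and Tyms (0.977), and for Mstn Sar1b (0.964), 2700089E24Rik (0.954) and Fundc2 (0.951). For Tgfb1 they included Fscn1 (0.961) and Sdc1 (0.955), and for Tgfb3 they were Ttll5 (0.947), Sec22b (0.916) and Mllt1 (0.911). For Tgfb2 they were Mypop (0.865), Gpr180 (0.843) and Dolk (0.825). The receptors were closest to Cttnbp2nl (0.982), Asap1 (0.977) and Kirrel (0.969) for Tgfbr2, and to Crkl (0.951), Kbtbd2 (0.936) and Gopc (0.933) for Tgfbr1. Fst was closest to Lzts2 (0.915), Bri3 (0.912) and Prdx6 (0.908). The activin subunits, with few reads, were closest to Srsf10 (0.870), Rint1 (0.848) and Mettl9 (0.839) for Inhba, and to Zfp324 (0.888), Zfp217 (0.879) and Rnf169 (0.861) for Inhbb. None of these genes is among the 10 or in the pathway lists.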

How the data were processed

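Poly(A) RNA of 24 muscle libraries was sequenced. The authors deposited 1 table of RPKM for 33022 transcripts, made with TopHat and HOMER on build mm9, per the submitters' processing notes, which give no version of either tool. The 10 genes, the pathway lists and the tests were chosen with earlier results of these data known. All columns were matched to samples by name. RPKM multiplied by exon length and library total gave whole reads within 0.01 for 99.97% of 584311 values above 0, and these reads served an alternative test with voom, which called 5987 genes higher and 1079 lower between the muscles of diabetic mice, and 6771 and 1068 in control mice.

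Genes with at least 1 RPKM in at least 6 libraries were tested with limma 3.58.1 in R 4.3.3 on log2(RPKM + 0.5), with 4 group means, a trended variance and Benjamini-Hochberg adjustment over 12382 genes in each of 5 contrasts. Calls were made at an adjusted p of 0.05, and intervals are 95%. SD is over the 6 libraries of a group. Numbers in the text were computed with python 3.11.15, pandas 2.3.3 and numpy 2.4.6. The code was tested on simulated data.

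Library sets were told apart by Gapdh above or below 100 RPKM. The labels give the same replicate numbers in all groups but no shared animal. Deviations from group means of same-numbered muscles of a mouse group correlated at 0.254 to 0.736 in 12 of 12 pairs (-0.0901 to 0.627 within sets). The main fit used no pairing, and a fit with the number as a block was therefore an alternative. Same-numbered diabetic and control samples of a muscle correlated at -0.659 to 0.822, with 9 of 12 pairs over 0.1, and were not taken as pairs.

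The other alternatives were pseudocounts of 0.1 and 1, no filter or 12 libraries in the filter, median-of-ratios and quantile scaling, a term for the library set, the longest transcript, and each library left out in turn. All 10 genes are named. In each pathway list up to 4 called genes with the smallest p per contrast are named, and always Acvr1b, Acvr2b, Smad3, Smad7 and Ltbp1. A few genes that these rules select are not reported here. The floors of 3 reads cover counting error only. Promoters come from a RefSeq table on another build than mm9, and no position was converted.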

Additional observations from a re-analysis of the deposited data

Results flagged for a closer look

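A library was set apart from the other 5 of its group, by the gap to its nearest neighbour over the range of the group (critical value 0.625 for 6 samples), in 3 of 40 groups examined. Chance gives such a gap in about 1 in 20 groups.

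Mstn stood at 9.44 RPKM in diabetic gastrocnemius 2, against 1.34 to 3.87 RPKM in the other diabetic gastrocnemius libraries. Mstn stood at 9.50 RPKM in control gastrocnemius 3, against 1.41 to 3.17 RPKM in the other control gastrocnemius libraries. These libraries also had the lowest sums of regenerating myofibre markers among the gastrocnemius libraries, 478 RPKM in diabetic 2 and 562 RPKM in control 3. Ltbp2 stood at 0.540 RPKM in control adductor 2, against 0.0583 to 0.205 RPKM in the other control adductor libraries, and that library had the highest fibroblast sum of all adductor libraries, 922 RPKM. The part of tissue makeup in these values was not tested.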

How the results depend on the processing

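The number of the 10 genes called between the muscles ran from 4 to 8 in diabetic mice (6 as reported) and from 7 to 10 in control mice (9 as reported) over 11 alternatives, and from 6 to 9 and from 8 to 10 with 1 library left out. None of the 10 was called for diabetes under any of them. At an unadjusted p under 0.05 there was 1 of the 10 with the block in adductor (Tgfb2, 0.32, p 0.024 by limma) and in the difference of effects (Tgfb3, -0.57, p 0.040), and 1 with the set term in gastrocnemius (Inhbb, -0.57, p 0.027). Inhbb also reached it there without diabetic gastrocnemius 4 (p 0.029) and without control gastrocnemius 6 (p 0.018). Within a library set, gastrocnemius Inhba in the first set was -0.75 (limma p 0.029, adjusted p 1; -0.0060 in the second), and Ltbp2 in the second was -0.92 (p 0.0096, adjusted p 0.29) with a difference of effects of -1.03 (p 0.028, adjusted p 0.43). Of 1740 gene values under alternatives 56 changed sign, and of those that kept their sign 17 lost and 12 gained a call. The cause was not tested. Values that changed sign could also change their call and are not in the 17 and 12. Among them, Tgfb2 between the muscles of control mice passed as lower with median-of-ratios scaling (-0.46, limma adjusted p 0.033). The replicate block brought the calls for Inhba (adjusted p 0.0054) and Inhbb (0.042) in diabetic mice and Tgfb2 (0.040) in control mice, and changed no other call of the 10 genes. For the diabetes differences within a muscle the block joined same-numbered diabetic and control libraries, which are not known to be pairs. With the filter at 12 libraries Inhba and Inhbb were not tested. Depth limits these subunits, at 0 to 207 reads per library.

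In the muscle comparison of diabetic mice, Tgfbr1 was -0.31 with median-of-ratios and -0.20 with quantile scaling, and Inhba was -0.0062 and Inhbb -0.28 with quantile scaling. In control mice Tgfb2 was -0.46 with median-of-ratios and with quantile scaling, and Inhbb was -0.11 with quantile scaling. The call for Inhba in control mice was also lost with a pseudocount of 0.1 (limma adjusted p 0.052).

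The other values that changed sign belong to differences near 0, none of which was called. Diabetic minus control in gastrocnemius, Tgfb2 was -0.00062 with a pseudocount of 1, and with a term for the library set Tgfb1 was -0.016, Tgfb2 -0.032 and Fst -0.14, as was Ltbp2 at -0.019 in adductor. Leaving out control adductor 2, control gastrocnemius 3 and diabetic gastrocnemius 2 together, an alternative chosen after seeing the data, gave 0.18 for Tgfb1 and 0.046 for Inhba in adductor, -0.024 for Tgfb2 in gastrocnemius and -0.12 for the difference of the effects on Tgfb1.

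With 1 library left out, the diabetes difference in adductor ran from -0.22 to 0.18 for Tgfb1, from -0.21 to 0.077 for Inhba and from -0.050 to 0.13 for Ltbp2. In gastrocnemius it ran from -0.056 to 0.28 for Tgfb1, -0.13 to 0.085 for Tgfb2, -0.29 to 0.11 for Tgfbr1, -0.52 to 0.11 for Inhba, -0.25 to 0.41 for Mstn and -0.15 to 0.24 for Fst. The difference of effects ran from -0.080 to 0.34 for Tgfb1 and from -0.44 to 0.19 for Inhba, and the muscle difference of Tgfb2 in diabetic mice from -0.11 to 0.032.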
